A study of Mus musculus with 6 samples.

Results

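The genes examined were Gdf3, Dppa3, Nanog and Slc2a3, 4 neighbours on mouse chromosome 6, taken out of 21202 gene names with a listed promoter. Some of these names are coordinates rather than genes, and counts and shares of all genes below include them. The data examined were all pairs of a promoter fragment and a distal region in which the promoter line named one of these genes. There were 130 such pairs of 499746 in HiCap replicate 1, 27 of 553977 in HiCap replicate 2 and 16 of 74807 in the Hi-C list. A pair was called when both HiCap replicates listed the same promoter fragment and the same distal region, which held for 8 pairs of these genes and for 94896 pairs of all genes.

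The study mapped promoter contacts in R1, an established mouse embryonic stem cell line kept undifferentiated in serum with LIF on gelatin. In HiCap, chromatin crosslinked with 1% formaldehyde was cut with MboI, which cuts at GATC, ligated as in Hi-C, and then enriched for promoter fragments with hybridisation probes. The series held 6 libraries of untreated cells, with 2 replicates each of HiCap, of Capture-C (chromosome conformation capture followed by promoter capture) and of Hi-C without capture. No genotype, treatment or time differed between the libraries, so every comparison was between assays, replicates or promoters of the same cells. Capture-C was not analysed here. The lists held positions and no read numbers, so the depth behind a pair is unknown and absence from a list is not absence of contact. With 2 HiCap replicates and 1 pooled Hi-C list no test was possible. Intervals on shares are exact binomial (Clopper-Pearson) 95% intervals, which cover counting error only, and pairs that share a fragment are not independent.

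Nanog encodes a homeobox transcription factor of the pluripotency network. Dppa3 (Stella) encodes a maternal factor that protects DNA methylation in the early embryo, Gdf3 a ligand of the TGF-beta family, and Slc2a3 the glucose transporter GLUT3. The genes lie together in a segment that is active in pluripotent cells, and enhancers of Nanog are known about 5 and 45 kb upstream and 60 kb downstream of its start site. Proximity ligation reports which fragments lay close to a promoter, not whether a fragment regulates it.

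On mm9 the promoter fragments lay in the order Gdf3 (chr6:122559609-122561426, gene on the minus strand), Dppa3 (chr6:122576235-122577252, plus), Nanog (chr6:122657373-122657721, plus) and Slc2a3 (chr6:122692651-122693067, minus). Each fragment held the start site of its gene and carried no other gene's name. Their midpoints were 16.2 kb apart from Gdf3 to Dppa3, 80.8 kb from Dppa3 to Nanog and 35.3 kb from Nanog to Slc2a3. The Nanog and Slc2a3 fragments were short, at 348 and 416 bp, against 1017 bp for Dppa3 and 1817 bp for Gdf3. Distances below run between fragment midpoints, and upstream and downstream follow the strand of each gene.

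Stretches of 4 called regions that lie outside exons are printed below from the mm9 genome, since these regions carry the replicated contacts, followed by the MboI site that separated a replicate 2 region from a replicate 1 region of Nanog near 45 kb upstream. Capitals mark a match to the SOX motif ACAAAGG or, on the last line, the MboI site.
Nanog region upstream of the promoter, chr6:122652985-122653224, plus strand: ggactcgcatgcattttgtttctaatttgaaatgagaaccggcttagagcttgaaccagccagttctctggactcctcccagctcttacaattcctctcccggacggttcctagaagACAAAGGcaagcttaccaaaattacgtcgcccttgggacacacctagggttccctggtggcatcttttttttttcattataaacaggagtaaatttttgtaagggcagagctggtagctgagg
Region called for Nanog and Slc2a3, chr6:122715003-122715242, plus strand: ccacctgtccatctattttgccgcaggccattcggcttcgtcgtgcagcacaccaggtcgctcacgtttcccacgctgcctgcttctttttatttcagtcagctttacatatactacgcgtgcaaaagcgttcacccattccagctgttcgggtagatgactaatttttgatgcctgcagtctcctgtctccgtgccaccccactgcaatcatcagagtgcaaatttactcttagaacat
Nanog region beyond Slc2a3, chr6:122761022-122761261, plus strand: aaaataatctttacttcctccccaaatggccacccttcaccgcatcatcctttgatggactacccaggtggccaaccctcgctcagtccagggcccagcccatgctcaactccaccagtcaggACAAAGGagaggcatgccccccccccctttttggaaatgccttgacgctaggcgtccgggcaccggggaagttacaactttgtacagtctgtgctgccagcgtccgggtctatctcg
Dppa3 intergenic region, chr6:122582152-122582391, plus strand: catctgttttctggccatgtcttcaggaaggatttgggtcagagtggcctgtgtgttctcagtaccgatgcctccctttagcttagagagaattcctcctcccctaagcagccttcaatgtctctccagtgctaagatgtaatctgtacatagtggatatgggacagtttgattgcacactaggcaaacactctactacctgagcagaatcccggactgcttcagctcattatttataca
MboI site between adjoining Nanog regions, chr6:122610200-122610323, plus strand: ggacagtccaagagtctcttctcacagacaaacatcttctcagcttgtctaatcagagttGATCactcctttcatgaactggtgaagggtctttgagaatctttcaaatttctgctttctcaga

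Nanog had the most distal regions of the 4 genes in both HiCap replicates and the most called regions. HiCap replicate 1 listed 49 regions for Nanog, more than for 85.7% of all genes, and replicate 2 listed 13, more than for 53.0%. The 4 called regions were more than 69.7% of genes had, where 60.7% of genes had at least 1 call. Slc2a3 had 25 regions in replicate 1, 4 in replicate 2 and 2 called. Dppa3 had 18 in replicate 1, 6 in replicate 2 and 2 called. Gdf3 came next to Nanog in replicate 1, with 38 regions, yet had 4 in replicate 2 and none called. The order of the genes in replicate 1 was thus not that of the calls.

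**Figure D1:**
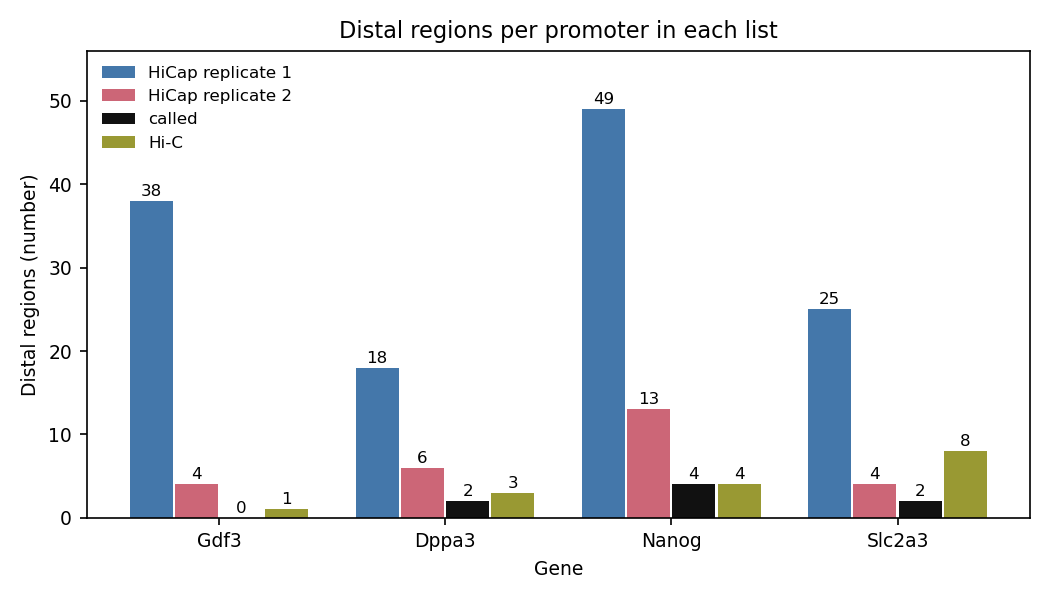
Number of distal regions (vertical axis) of each promoter in HiCap replicate 1, HiCap replicate 2, both replicates (called) and the pooled Hi-C list; each bar is the count in 1 list, without an error. Replicate 1 exceeded replicate 2 for all 4 genes, and Gdf3, with 38 and 4 regions, had 0 called.

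The 4 called regions of Nanog lay on both sides of the gene. The nearest was intergenic, 4.31 kb upstream (chr6:122652845-122653635, 790 bp), within 5 kb of the known upstream enhancer position. Another lay in an intron of Nanog, 4.67 kb downstream (chr6:122662022-122662408, 386 bp). The remaining pair of regions lay beyond the Slc2a3 promoter, 57.6 kb (chr6:122714793-122715451, 658 bp) and 103 kb (chr6:122760753-122761261, 508 bp) downstream. Of the 4 called Nanog pairs, 2 therefore passed over another gene's promoter, as did 30.0% of all called pairs.

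The called region 57.6 kb downstream of Nanog was also called for Slc2a3, from whose promoter it lay 22.3 kb upstream. It was the 1 distal region called for more than 1 of the genes, and it lay within 5 kb of the known position 60 kb downstream of Nanog. Replicate 1 listed it for Dppa3 as well, 138 kb away, and replicate 2 listed it for C3ar1 and Phc1. The annotation places it in an intron of Slc2a3, but only 2 of 8 annotated Slc2a3 transcripts, those with a distant upstream start, span it. The region 103 kb downstream was called for Nanog and for Foxj2, a forkhead transcription factor gene whose promoter is the next to the right. Replicate 2 listed this region for Dppa3 and Necap1 too, and replicate 1 for C3ar1. By shared regions over the union of called regions, Slc2a3 (0.200) and Foxj2 (0.125) were the only genes whose called regions overlapped those of Nanog.

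The second called region of Slc2a3 lay 14.9 kb downstream of its promoter (chr6:122677742-122678149, 407 bp), over the exon that ends the gene, and replicate 2 listed it for Dppa3 also. Both called regions of Dppa3 lay close to it on the Nanog side. The nearer overlapped an exon of Dppa3, 3.06 kb downstream (chr6:122579613-122579987, 374 bp), and the farther was intergenic, 5.53 kb downstream (chr6:122582110-122582433, 323 bp). The intergenic region was listed for Gdf3 in replicate 1. Neither Dppa3 call passed over another gene's promoter.

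Gdf3 had no called region, and its promoter fragment was the longest of the 4. Its 38 regions in replicate 1 lay 2.35 to 230 kb from the promoter, with a median of 19.9 kb, and 30 were within 100 kb. Its 4 regions in replicate 2 lay at 50.8 kb, in intergenic sequence upstream of Nanog; at 82.4 kb, over an exon of Mfap5; at 99.8 kb, in an intron of Nanog; and at 1417 kb, over an exon of Pex26, a region that was called for Pex26 itself. None of these 4 was within 5 kb of a replicate 1 region of Gdf3. The neighbouring gene Apobec1, which encodes an RNA-editing cytidine deaminase, likewise had 29 regions in replicate 1, 6 in replicate 2 and 0 called. Lack of calls was not general around the locus. C3ar1 also had 29 regions in replicate 1, with 10 in replicate 2 and 4 called. The 16 promoter fragments of other genes within 260 kb of the Nanog start had 28 called pairs together. Gdf3 and Apobec1 shared 14 regions in replicate 1, or 0.264 of their union, the highest overlap that any of the 4 genes had with another gene in that list. Apobec1 was picked, and this overlap looked up, after the lists were seen.

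**Figure D2:**
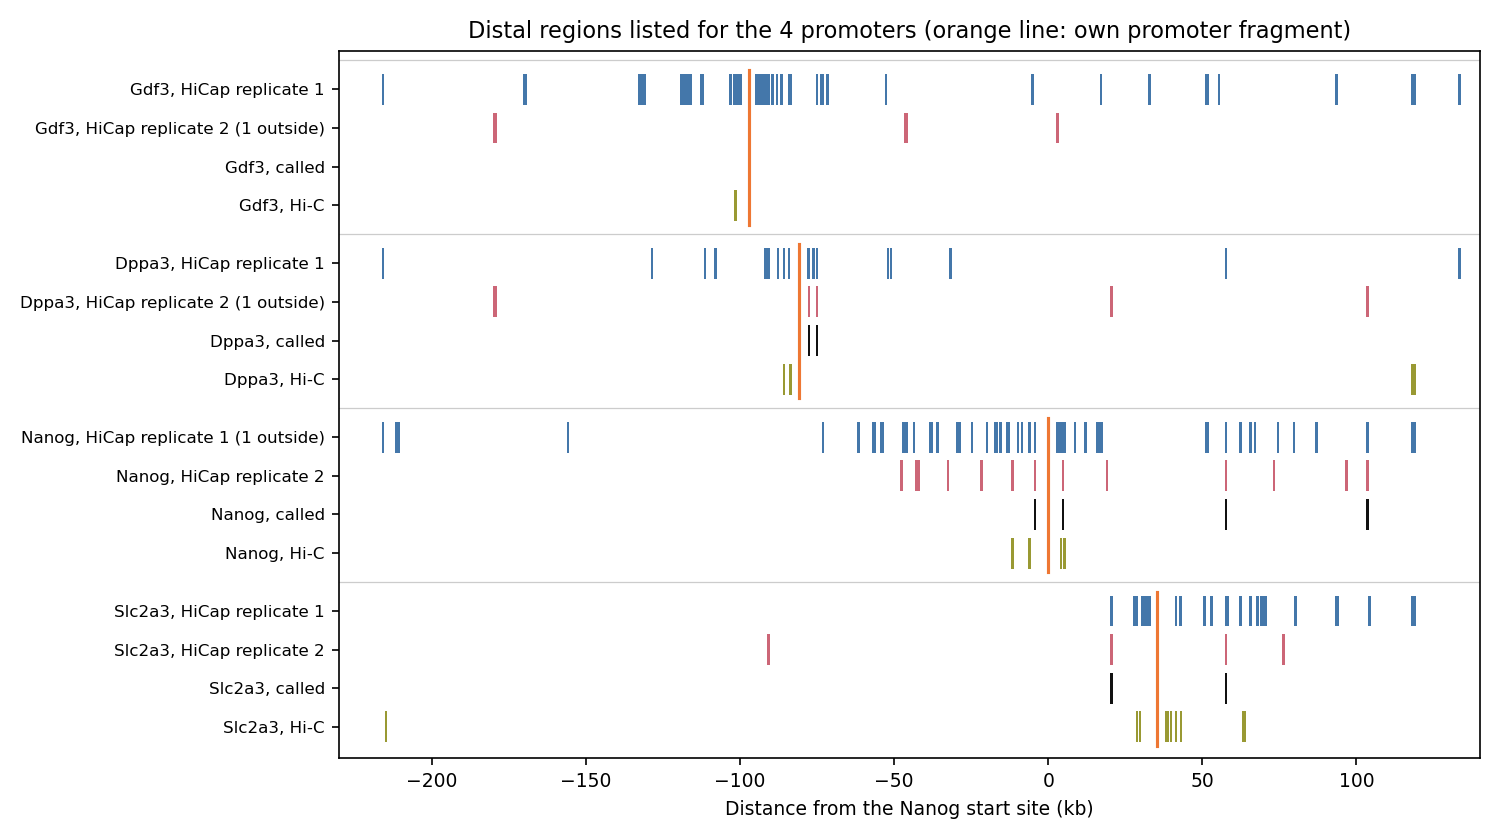
Distal regions of each promoter by list, against distance from the Nanog start site in kb; orange lines mark the gene's own promoter fragment, regions under 0.8 kb are drawn 0.8 kb wide, and regions beyond the axis are counted in the row label. Called regions (black) lay next to Dppa3, on both sides of Nanog and on both sides of Slc2a3, with a shared position 57.5 kb right of the Nanog start.

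The regions of each gene in replicate 1 were counted by their position between the promoters. The intervals differ in length and in distance from each promoter, and the counts were not adjusted for either. Of the 49 Nanog regions, 24 lay between Dppa3 and Nanog, 11 between Nanog and Slc2a3, 11 beyond Slc2a3 and 3 left of Gdf3, and none lay between Gdf3 and Dppa3. Slc2a3 had 8 regions between itself and Nanog, 17 on its far side and none left of Nanog. Dppa3 had 5 regions towards Gdf3, 4 beyond Gdf3, 7 towards Nanog, none between Nanog and Slc2a3 and 2 beyond Slc2a3. Gdf3 had 14 regions on its left, 11 towards Dppa3, 6 between Dppa3 and Nanog, 2 between Nanog and Slc2a3 and 5 beyond Slc2a3. Pairs that passed over another gene's promoter made up 57.9% of the Gdf3 list, 33.3% of the Dppa3 list, 28.6% of the Nanog list and 4.00% of the Slc2a3 list, where the share over all genes was 40.0%.

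The replicate 2 regions were sparser and on the whole farther away. For Nanog 7 of 13 lay between Dppa3 and Nanog, 2 between Nanog and Slc2a3 and 4 beyond Slc2a3. Slc2a3 had 1 region between Gdf3 and Dppa3, at 126 kb, where replicate 1 listed none. Dppa3 had a region at 12291 kb, and together the 4 genes had 2 of 27 pairs over 1000 kb in replicate 2 and 1 of 130 in replicate 1, a Nanog pair at 2051 kb. Over all genes 19.4% of replicate 2 pairs and 0.371% of replicate 1 pairs spanned more than that distance. The median distance for the 4 genes was 22.0 kb in replicate 1 and 47.7 kb in replicate 2, against 19.8 and 101 kb over all genes.

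Replicate 1 listed many more regions at this locus than replicate 2. The ratio of replicate 1 to replicate 2 was 9.50 for Gdf3, 6.25 for Slc2a3, 3.77 for Nanog and 3.00 for Dppa3. It was 4.81 for the 4 genes together and 0.902 for all genes. Within 100 kb of the promoter the ratios were 5.38 and 1.51. Among 12213 genes with at least 20 regions over both lists, 5060 had more in replicate 1. A ratio at least as high as that of the gene itself was found in 2.22% of them for Gdf3, 5.21% for Slc2a3, 14.0% for Nanog and 19.5% for Dppa3. The ratio extended to the surroundings, since all 16 other promoter fragments within 260 kb of the Nanog start, of 10 genes, had more regions in replicate 1, with 291 against 72 in all. What set this difference between the replicates was not tested.

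**Figure D3:**
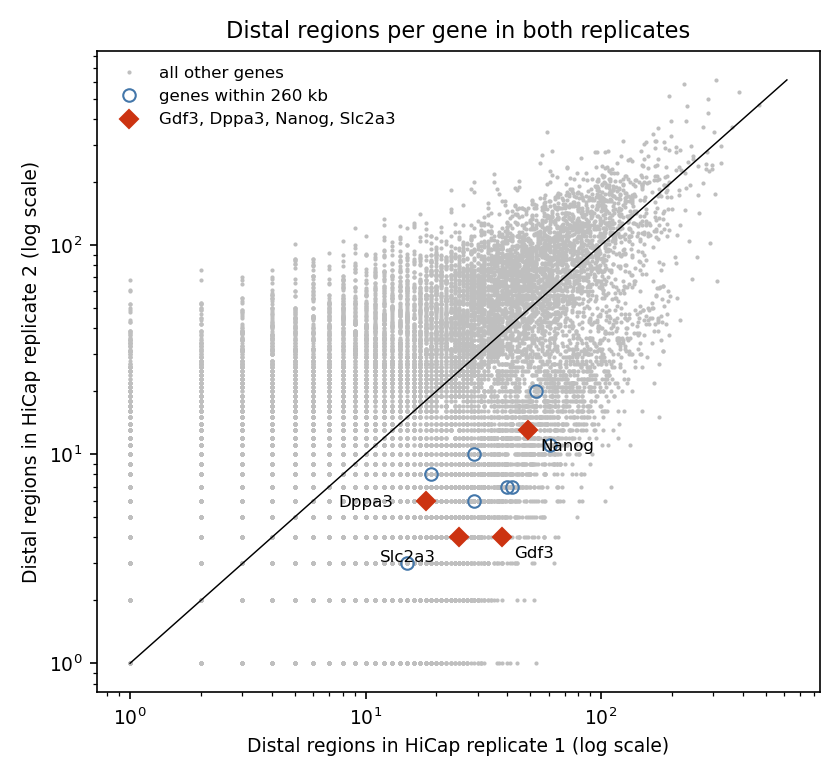
Distal regions per gene in HiCap replicate 1 and replicate 2, both on log axes, for the 17372 genes with at least 1 region in each; the line marks equal counts. Gdf3, Dppa3, Nanog and Slc2a3 (diamonds) and the 8 genes within 260 kb that both replicates listed (open circles) all lay below the line.

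Of the 130 replicate 1 pairs 6.15% (95% interval 2.69 to 11.8) were called, where 19.0% of all replicate 1 pairs were. Of the 27 replicate 2 pairs 29.6% (13.8 to 50.2) were called, where 17.1% of all replicate 2 pairs were. The share of called pairs fell with distance over all genes. Had the 4 genes had the share of all pairs in every distance class, 24.9 calls would be counted from the replicate 1 list and 6.05 from the replicate 2 list, beside the 8 observed. Thus the number of calls lay below the background read from the long list and near it read from the short list. In replicate 1 the share for the 4 genes was 13.6% of 22 pairs up to 5 kb and 5.26% of 19 pairs at 5 to 10 kb, beside 31.6% and 27.1% over all genes, and 0 of 25 pairs at 25 to 50 kb were called, beside 14.4%. From 10 to 25 kb the share was 6.90% of 29 pairs beside 20.1%, from 50 to 100 kb 5.56% of 18 beside 11.6%, and from 100 to 500 kb 6.25% of 16 beside 7.69%. The 1 pair beyond 500 kb was not called, where 3.13% of such pairs were. In replicate 2 all 3 pairs up to 5 kb and the 1 pair at 5 to 10 kb were called, where 58.0% and 50.1% were over all genes. From 10 to 25 kb 2 of 6 were called (33.7% over all genes), from 25 to 50 kb 0 of 4 (19.4%), from 50 to 100 kb 1 of 7 (12.0%), from 100 to 500 kb 1 of 4 (4.24%) and beyond that 0 of 2 (0.128%). Each class interval of replicate 2 held the share over all genes. So did each of replicate 1, apart from the classes at 5 to 10 kb, where the interval ended at 26.0%, and at 25 to 50 kb, where it ended at 13.7%. Around the locus the other promoter fragments within 260 kb had 9.62% of their replicate 1 pairs and 38.9% of their replicate 2 pairs called.

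**Figure D4:**
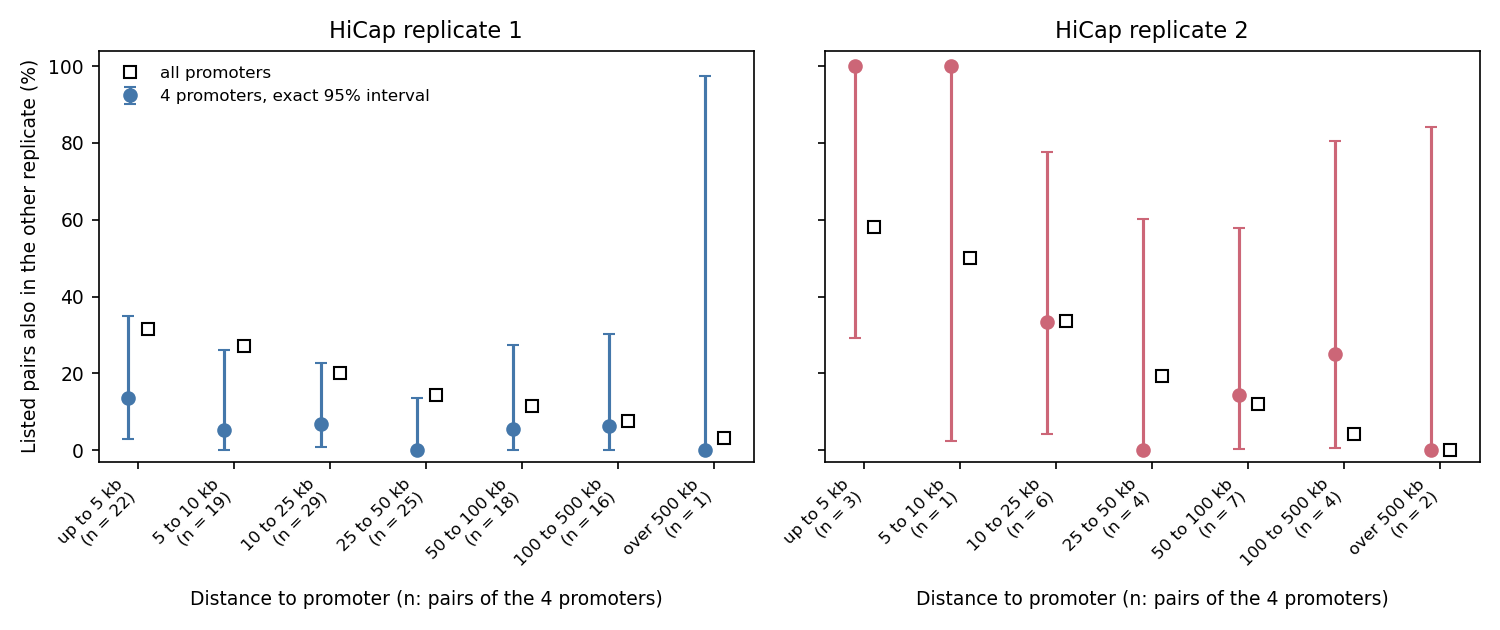
Percent of listed pairs that the other replicate listed too, by distance to the promoter in kb, for the 4 promoters (filled circles with exact 95% intervals, n below each class) and for all promoters (open squares). In replicate 1 the circles lay below the squares in every class, whereas in replicate 2 all pairs within 10 kb were called.

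From 15 kb on, 3 of 79 replicate 1 pairs (3.80%) and 3 of 21 replicate 2 pairs (14.3%) were called, where 12.6% and 8.29% of all pairs at those distances were. Under a looser match the added pairs were mostly of Nanog. When distal regions of the same promoter at most 1 kb apart counted as the same, 15.4% of replicate 1 pairs and 44.4% of replicate 2 pairs were matched, where 48.1% and 34.0% were over all genes. At up to 5 kb apart 34.6% and 63.0% were matched, where 67.4% and 44.1% were over all genes. Of the 45 replicate 1 pairs matched within 5 kb, 34 were of Nanog, 7 of Slc2a3, 4 of Dppa3 and 0 of Gdf3.

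The known enhancer position 45 kb upstream of Nanog gave such a case. Within 5 kb of it replicate 1 listed 3 Nanog regions and replicate 2 listed 2, and none was called. Over all genes 14.4% of replicate 1 pairs and 19.4% of replicate 2 pairs at 25 to 50 kb were called. With so few regions, no lack of calls can be read from this. The whole 80.8 kb from Dppa3 to Nanog held 24 Nanog regions in replicate 1 and 7 in replicate 2. Whether the known positions held more regions than their surroundings was not tested. The replicate 2 region chr6:122609531-122610259, 47.7 kb upstream, ended at the MboI site printed above where the replicate 1 region chr6:122610259-122610580 began. A further region there, 46.2 kb upstream of Nanog (chr6:122610704-122611966), was listed for Nanog in replicate 1 and for Gdf3 in replicate 2. Around the position 5 kb upstream replicate 1 listed 4 Nanog regions and replicate 2 listed 1, which was the called region at 4.31 kb. Around the position 60 kb downstream Nanog had 2 regions in replicate 1 and 1 in replicate 2, and Slc2a3 had 3 and 1, with the shared region called for both. Gdf3 and Dppa3 had 1 region each there, in replicate 1. Dppa3 and Slc2a3 had no region within 5 kb of either upstream position in any list.

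Most distal regions were listed for only 1 of the 4 genes. The 149 pairs of either HiCap replicate fell on 128 distinct regions, of which 111 were listed for 1 of the genes, 13 for 2, 4 for 3 and 0 for all 4. Regions listed for more than 1 of the genes were 12 of 115 in replicate 1 (10.4%), 4 of 23 in replicate 2 (17.4%) and 1 of 7 called (14.3%). Counted over genes of any kind, the regions linked to more than 1 gene were 34 of 115 in replicate 1 (29.6%), 6 of 23 in replicate 2 (26.1%) and 2 of 7 called (28.6%). Over the regions of all genes, each counted once, the shares were 21.9%, 20.4% and 13.9%. A region linked to many genes has more ways to enter the list of the 4 genes. The shares are therefore not like for like, and no excess of sharing can be read from them. In replicate 1 the neighbours Gdf3 and Dppa3 shared 6 regions, 15.8% of the Gdf3 list and 33.3% of the Dppa3 list. Nanog and Slc2a3 shared 4, which were 8.16% and 16.0% of their lists, and Dppa3 and Nanog shared 2, 11.1% and 4.08%.

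The 4 regions listed for 3 genes were spread across the segment. One lay 216 kb left of the Nanog start in intergenic sequence (chr6:122441310-122442015) and was listed by replicate 1 for Gdf3, Dppa3 and Nanog. Another lay between Gdf3 and Dppa3 (chr6:122566430-122567442) and was listed by replicate 1 for those genes and by replicate 2 for Slc2a3, 126 kb away. The others were the region called for Nanog and Slc2a3 and a region in an intron of Foxj2, 118 kb right of the Nanog start (chr6:122775357-122776780). Replicate 1 listed the Foxj2 region for Gdf3, Nanog and Slc2a3 and for 20 other genes, and Hi-C listed it for Dppa3. It was called for none of the 4 genes but for 7 others, Foxj2, C3ar1, Clec4d, Clstn3, Lpcat3, Necap1 and Phc1.

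**Figure D5:**
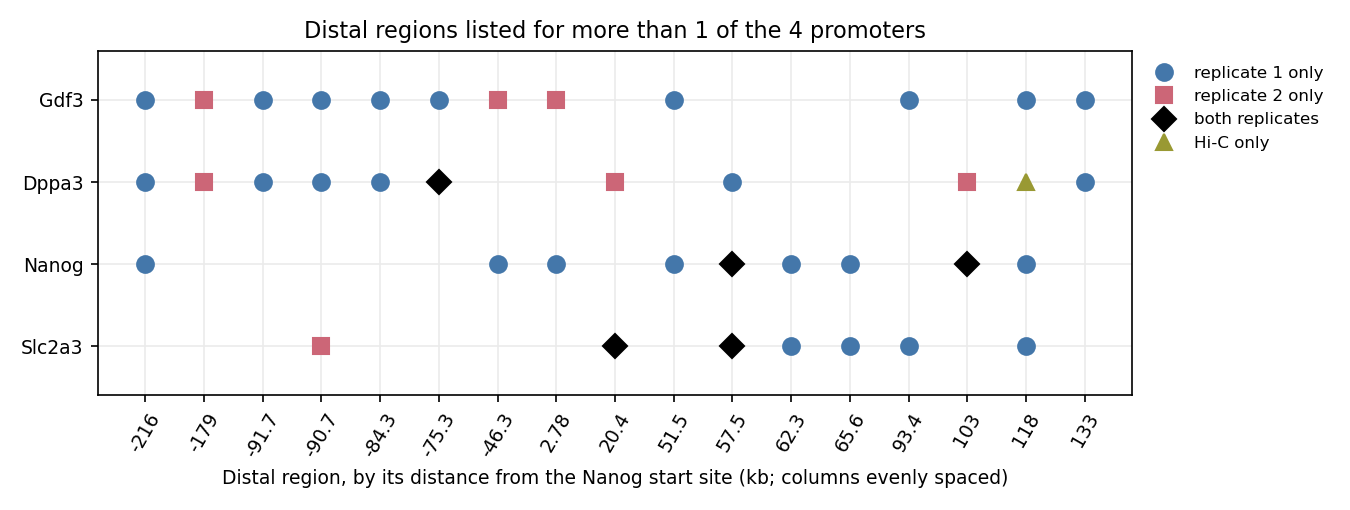
The 17 distal regions listed for more than 1 of the 4 promoters in either HiCap replicate, in order along the chromosome and labelled by distance from the Nanog start site in kb (columns evenly spaced); symbols give the list that held the pair. The column at 57.5 kb holds 2 black diamonds, the region called for Nanog and Slc2a3.

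The Hi-C list, made without capture, held none of the 8 called pairs, which allows a share of up to 37.5% (3 counts of 8). It held 12.5% of all called pairs, and 1.03 pairs would be counted for the 4 genes at the share of each distance class (the exact interval for 0 of 8 ran to 36.9% and held the background share). It held 7 of 130 replicate 1 pairs (5.38%, where 4.93% of all pairs were held) and 1 of 27 replicate 2 pairs (3.70%, where 3.01% were). By gene, Hi-C listed 8 regions for Slc2a3, more than for 87.6% of genes, 4 for Nanog, 3 for Dppa3 and 1 for Gdf3. All 4 Nanog regions in Hi-C were in a HiCap replicate, as were 2 of 8 for Slc2a3, 1 of 3 for Dppa3 and 1 of 1 for Gdf3. The called Nanog region in the intron lay directly between a pair of adjoining regions that Hi-C and replicate 1 both listed, at 4.12 and 5.08 kb. With regions at most 1 kb apart counted as the same, 2 of the 8 called pairs were in Hi-C, where 35.1% of all called pairs were. Regions in Hi-C were nearer their promoters, with a median of 5.85 kb and a farthest pair at 250 kb, between Slc2a3 and intergenic sequence left of Gdf3.

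By annotation the 115 replicate 1 regions of the 4 genes were 23 over exons, 32 in introns and 60 between genes. The 7 called regions were 2, 2 and 3. The same split was not made for the regions of all genes. Of the 25 Slc2a3 regions in replicate 1, 17 lay upstream of its promoter. Those of the 17 placed within Slc2a3 were so only through annotated transcripts that start farther upstream. Many lay within the genes themselves: Slc2a3 was listed with exons or introns of its own gene, Nanog with its own introns and exons at 2.62 to 5.08 kb, and Gdf3 with its own exons at 2.97 to 5.05 kb. Exons of other genes were also held, such as those of Apobec1 for Gdf3 at 19.0 to 22.2 kb, and the predicted genes Gm10420 and Gm10224 for Nanog at 11.6 and 8.62 kb upstream. The Gm10420 region was in replicate 2 and in Hi-C.

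The listed fragments were longer than the fragments around them. From 2 to 100 kb around the Nanog promoter the mm9 sequence held 542 MboI fragments, of which 8.12% overlapped a region of replicate 1 and 2.58% a region of replicate 2. Their median length was 536 bp in replicate 1 against 236 bp for the fragments not listed. For Gdf3 6.00% of 517 fragments were listed in replicate 1 and 0.774% in replicate 2, for Slc2a3 4.91% and 0.566% of 530, and for Dppa3 2.91% and 0.777% of 515. Listed fragments were the longer group by median for each of the 4 genes in both replicates. In replicate 2 the medians rest on only 4 listed fragments for Gdf3, 4 for Dppa3, 3 for Slc2a3 and 14 for Nanog. Over the pairs of all genes the listed regions had a median length of 560 bp in replicate 1 and 504 bp in replicate 2. The part of fragment length in being listed was not tested.

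Motif matches in the called regions were few. The SOX motif ACAAAGG occurred 2 times in the Nanog region 4.31 kb upstream and 2 times in the Nanog region at 103 kb, searched on both strands, with 1 match of each printed above and no overlap between matches. It occurred in 15.8% and 10.7% of all called regions of similar length (within 10%), respectively. The octamer ATGCAAAT of POU factors, the Esrrb motif TCAAGGTCA, the Klf motif GGGCGTGG and the core of the CTCF motif had no match in the 7 called regions, and among all 71955 called regions 3.29%, 2.34%, 3.61% and 3.25% held them. These are counts of letters in these windows and say nothing of bound factors. The GC content ran from 41.2% in the Dppa3 exon region to 56.4% in the region shared by Nanog and Slc2a3, where all called regions had a median of 46.5% and quartiles of 42.5% and 50.7%.

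In the HiCap lists the counts of the 4 genes lay within the range of a set of pluripotency genes. That says little, because Klf2 had more called regions than 98.6% of all genes and others of the set had 0. Of 20 such genes 19 were listed, and their called regions ran from 0 for Sall4, Nr0b1 and Dppa5a to 35 for Klf2, with a median of 4.00, the number for Nanog, where the median of all genes was 1. Replicate 1 counts ran from 0 for Nr0b1 to 81 for Esrrb with a median of 24.0, and replicate 2 counts from 1 for Dppa5a to 178 for Klf2 with a median of 20. All 4 locus genes lay below that replicate 2 median. In Hi-C the range was 0 to 7, the highest for Klf2, and Slc2a3, with 8 regions, lay above it.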

How the data were processed

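Promoter and distal fragments were taken from 4 lists on mm9: HiCap replicates 1 and 2, the authors' combined HiCap list and a Hi-C list in which the authors pooled the replicates. The deposited values are positions in bases, with no read numbers, scores or other measurement. Per the study's methods, HiCap reads were aligned with HiCUP and Bowtie, multi-mapping and duplicate pairs and pairs under 1 kb were discarded, and 3 read pairs were required, so weak contacts are missing; the Hi-C minimum is not given in the sources used here. Duplicate lines were removed, and pairs were matched on identical coordinates with pandas 2.3.3 under Python 3.11.15, checked on simulated lists. The authors' combined list gave the same 8 pairs for these genes. Coordinates are printed as listed. A listed distal start is the base before the GATC, as 71954 of 71955 called regions showed, and sequences were read from that site on in mm9 and carry 1-based coordinates. Exons and introns came from an mm9 gene annotation. No columns of other series were used, and the 2 Capture-C libraries were not analysed here.

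The members and gene lists were chosen with earlier results of these data known. Named genes were the 4 genes, genes that shared a called region with them or held 1, genes starting between them, up to 5 genes with the most shared called regions, and 20 pluripotency genes by range. Outside this rule Apobec1, Mfap5, Pex26, Phc1 and the other genes that a distal region of the 4 genes lay in or was also listed for were named after their values were seen. No test was run, because positions from 2 replicates allow none. Replicates were separate samples by the labels; the alternatives tried were matching within 1 or 5 kb, by gene, by the combined list, after merging adjoining regions, from 15 kb on, and each replicate alone.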

Additional observations from a re-analysis of the deposited data

How the results depend on the processing

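Of 54 alternative values 23 equalled the reported value, and 27 moved by more than 1.5 times or, for a share, beyond its exact 95% interval. The count of 8 called pairs became 20 replicate 1 pairs with regions at most 1 kb apart matched and 45 at most 5 kb apart. It became 3 for pairs of at least 15 kb. In the same order Nanog went from 4 to 13, 34 and 2, Dppa3 from 2 to 4, 4 and 0, and Slc2a3 from 2 to 3, 7 and 1. The counts at 1 and 5 kb were taken from the replicate 1 side, where several pairs can match the same replicate 2 region. The 45 thus exceeds the 27 pairs that replicate 2 listed. The called share went from 6.15% to 15.4% (1 kb) and 34.6% (5 kb) but 3.80% (15 kb) of replicate 1 pairs, and from 29.6% to 44.4% (1 kb) and 63.0% (5 kb) but 14.3% (15 kb) of replicate 2 pairs. Called pairs in Hi-C went from 0 to 2 at 1 kb. With HiCap replicate 1 or replicate 2 left out, the list that remained gave 27 to 130 pairs in all, 13 to 49 for Nanog, 6 to 18 for Dppa3, 4 to 25 for Slc2a3, 4 to 38 for Gdf3, and 4 to 12 shared regions. These changes follow from how each alternative counts. Matching by gene, the authors' combined list and merging adjoining regions changed no count of called regions, and Gdf3 stayed at 0 calls in every alternative that used both replicates. Depth could not be weighed, since the lists hold no read numbers. No paired analysis was possible because the results come from no test and the Hi-C list pools its replicates.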
